A study of Mus musculus with 247 samples.

Results

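MED1 is a subunit of Mediator, the large coactivator complex that links transcription factors bound at enhancers to RNA polymerase II at promoters. Most MED1 sites are narrow, but some genomic stretches carry MED1 over many kilobases, where several enhancers lie close together or a highly transcribed gene is covered along with its start. Such wide regions are a usual way to mark clustered enhancers of cell identity and response genes in macrophages. The regions described here are the MED1 regions at least 5000 bp wide (end minus start) in RAW264.7 cells, a mouse macrophage line of BALB/c origin. There were 934 of them among 26718 MED1 regions, with 6336 regions of 2000 bp up to 5000 bp and 19448 regions under 2000 bp making up the rest. Width was set by peaks called on the same 4 MED1 libraries that are compared below. The MED1 levels of the wide regions are therefore given as a description. All 4 were from cells with LPS, a choice that favours regions with much MED1 after LPS. Shares of LPS against untreated libraries are thus a description too, and the comparisons of KO with WT cells rest on the other assays.

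GPS2 is a subunit of the nuclear receptor corepressor complex, which holds inflammatory genes down in resting macrophages. Lipopolysaccharide (LPS), a bacterial cell wall component, activates these cells through Toll-like receptor signalling. The groups were GPS2 knockout (KO) RAW264.7 cells made by CRISPR and wild-type (WT) RAW264.7 cells, each with LPS or untreated; whether the KO cells are a single clone is not stated. RNA was sequenced from poly(A) libraries in KO LPS, WT LPS, KO untreated and WT untreated cells (n = 4 each, 10 ng/ml LPS for 6 hours). ChIP-seq, in which DNA bound by a protein is recovered with an antibody, was made after LPS for 2 hours or without LPS, with the dose not given in the sources used here. It covered PU.1 (the macrophage lineage factor) and JunB (an AP-1 subunit) in all 4 conditions, and, of the libraries used here, MED1 and RNA polymerase II with LPS, each with 2 libraries a group. Open chromatin was measured by ATAC-seq in untreated KO cells and untreated CRISPR control cells (n = 3 each).

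Sequences inside the wide regions are shown for some of the PU.1 and JunB peaks described below. They do not stand for all peaks: each JunB window printed holds the AP-1 motif at 2 positions, whereas 51.1% of the JunB windows inside wide regions hold it at all, and the JunB peaks with the largest differences at Sdc4 and Adm hold it at 0. The windows are 200 bases around the centre of a peak, on the plus strand of mm9, the build of the files; they were chosen after their values were seen. Capitals mark the AP-1 motif TGANTCA or the PU.1 motif GAGGAAGT, searched on both strands. The windows of the Lrpap1 region lie under a JunB and a PU.1 peak that were higher in KO cells, at chr5:35511543-35511742 and chr5:35508226-35508425.
Lrpap1 JunB: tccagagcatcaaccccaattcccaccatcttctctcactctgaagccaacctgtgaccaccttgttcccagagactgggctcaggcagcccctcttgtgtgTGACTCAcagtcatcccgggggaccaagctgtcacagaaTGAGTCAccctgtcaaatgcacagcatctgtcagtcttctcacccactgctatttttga
Lrpap1 PU.1: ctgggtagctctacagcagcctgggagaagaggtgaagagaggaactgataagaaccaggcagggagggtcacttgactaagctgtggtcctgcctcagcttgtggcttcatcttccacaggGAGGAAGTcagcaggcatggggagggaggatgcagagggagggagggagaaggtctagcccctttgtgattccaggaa
The windows at Sdc4 (chr2:164264482-164264681) and Noct (chr3:51027111-51027310) are the strongest JunB peaks of their regions and were lower in KO cells with LPS.
Sdc4 JunB: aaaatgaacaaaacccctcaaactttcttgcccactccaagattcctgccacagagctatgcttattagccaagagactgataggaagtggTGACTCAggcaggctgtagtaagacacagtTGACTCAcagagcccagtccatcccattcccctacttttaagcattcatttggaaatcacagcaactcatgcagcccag
Noct JunB: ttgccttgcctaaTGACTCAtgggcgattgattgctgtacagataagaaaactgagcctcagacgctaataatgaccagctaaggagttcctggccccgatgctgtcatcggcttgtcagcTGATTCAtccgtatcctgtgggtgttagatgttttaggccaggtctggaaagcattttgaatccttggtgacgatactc
The window at Pid1 (chr1:84284121-84284320) lies under a PU.1 peak that was lower in KO cells with LPS and holds AP-1 letters but no PU.1 motif of these letters. The window at Actb (chr5:143670889-143671088) is the strongest PU.1 peak of the region of the beta-actin gene, which did not pass the test, and holds the PU.1 motif at 2 positions.
Pid1 PU.1: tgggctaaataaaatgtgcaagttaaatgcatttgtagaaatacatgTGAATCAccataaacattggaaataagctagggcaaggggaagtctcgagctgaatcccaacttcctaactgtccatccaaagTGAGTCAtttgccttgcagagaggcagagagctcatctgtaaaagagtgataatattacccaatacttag
Actb PU.1: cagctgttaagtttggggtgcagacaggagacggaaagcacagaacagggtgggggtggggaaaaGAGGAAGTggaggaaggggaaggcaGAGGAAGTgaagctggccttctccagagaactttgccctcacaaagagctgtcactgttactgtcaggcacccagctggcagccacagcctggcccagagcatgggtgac

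The libraries held 9793462 to 11932305 mapped reads for MED1, 10230448 to 11113625 for RNA polymerase II, 8096466 to 10389811 for PU.1, 8649049 to 16006472 for JunB, 4038814 to 7108592 for ATAC and 12094940 to 22968591 for RNA. Gps2 RNA was 76.9, 90.3, 98.5 and 95.6 normalised reads in KO LPS libraries, 420, 424, 422 and 496 in WT LPS, 132, 135, 130 and 133 in KO untreated and 458, 436, 425 and 415 in WT untreated libraries. A normalised read is a deposited read per 10000000 mapped reads, divided by the scale factor of its library. Of the macrophage markers, 8 of 9 were in the RNA table with summed levels of 83895 to 123448 normalised reads, whereas the T and B lymphocyte markers (3 of 8 in the table) summed to 0 to 2.59 and the fibroblast and epithelium markers (2 of 8 in the table) to 0.495 to 13, highest in untreated cells. WT LPS replicate 4 of the RNA stood apart: its counts differed from the other WT LPS libraries by a chi-square per gene of 94.1 to 131, against 5.00 to 9.11 among the other WT LPS libraries, so the counts of genes in the RNA comparison of KO LPS with WT LPS are given with and without it, as are the values of named genes whose call it changed or whose called value it moved by over 1.5 times. The 2 ChIP libraries of each group were close to sampling noise, at which a chi-square per region is near 1: it was 0.822 to 0.983 for 7 of the 12 groups, 1.04 to 1.11 for MED1 and RNA polymerase II and 1.24 for JunB in KO untreated cells, where the pairs differed by somewhat more than noise. The fits took each library as a replicate. Since nothing states that the 2 came from separate cultures, each pair is read as 1 sample. ChIP p-values therefore compare these libraries, and the ChIP differences have no check across cultures. The 2 RNA polymerase II libraries labelled WT LPS went against their label at LPS genes, as described below, and every RNA polymerase II direction rests on that label.

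The wide regions were long, shared by the libraries and close to genes. Their median width was 6405 bp and the widest spanned 28805 bp, against a median of 1304 bp over all MED1 regions. There were 233 regions of at least 8000 bp, 111 of at least 10 kb and 5 of at least 20000 bp. Of the 934, 925 were in the peak lists of all 4 libraries, which held for 51.1% of all MED1 regions. By annotation 422 (45.2%) were centred in an intron, 246 in intergenic sequence, 148 (15.8%) at a promoter and 50 (5.35%) at a transcript end, against 41.7% intron, 17.4% promoter and 1.87% transcript end among all regions. The start of the nearest gene lay inside 558 wide regions, and its median distance from the region centre was 2485 bp, against 7553 bp over all regions. Chromosome 11 held 118 of the wide regions, more than any other chromosome, out of 2183 MED1 regions there.

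The wide regions made up 3.5% of the MED1 regions and 14.6% of their length. They held 21.5% and 21.4% of the MED1 reads in regions in the KO LPS libraries and 20.1% in each WT LPS library. The region at Rn45s, 6.372 kb wide and called higher in KO LPS libraries, had a mean of 10878 normalised reads, more than any other gene. Without it the shares were 20.6% in each KO LPS and 19.4% in each WT LPS library. They were also dense: the median was 30.4 normalised reads per kb in wide regions, 23.4 in regions of 2000 bp up to 5000 bp and 18.2 in narrower ones. PU.1 peaks lay in 891 wide regions (95.4%), JunB peaks in 908 (97.2%), ATAC peaks in 933 (99.9%) and RNA polymerase II regions in 743 (79.6%). A longer region holds a peak more often by its length alone, so nothing is read from these shares.

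The 934 regions had 790 nearest genes, and 116 of those genes had 2 or more wide regions. Cd9, a tetraspanin of the cell surface, and Ptprj, a receptor tyrosine phosphatase, had 5 each. Tex14, Rbpj (the DNA-binding partner of Notch), Cyth4 and Irf2bp2 (an interferon regulatory factor cofactor) had 4 each. These runs did not behave alike in the comparison of KO LPS with WT LPS libraries described next: 3 of the 5 Ptprj regions and 3 of the 4 Tex14 regions were lower, while 2 of the 4 regions of Rbpj, of Cyth4 and of Irf2bp2 were higher.

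The MED1 values of the wide regions are described relative to the typical MED1 region, since against all mapped reads most of them were lower in KO LPS libraries. Of the 934 regions, 248 (26.6%) were higher and 95 (10.2%) lower in KO LPS than in WT LPS libraries (limma, adjusted p under 0.05), and the median log2 difference was 0.07. Over all MED1 regions 5.17% of regions were higher and 1.92% lower. The share called grew with width: 47.2% of the regions of at least 8000 bp were higher, 6.53% of those of 2000 bp up to 5000 bp and 3.65% of the narrower ones. Wide regions also had a median of 194 normalised reads, against 64.7 and 19.2 in the narrower classes, so a difference of given size is easier to call in them, and nothing is read from these counts. Reads in any MED1 region were 8.81% and 8.92% of the KO LPS libraries and 14.6% of each WT LPS library, and scaling by library totals alone moved the median of all regions by −0.77. With that scaling 0.535% of wide regions were higher and 95.7% lower. Without KO LPS library 1 or 2 the lower share was 5.03% or 4.6%.

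**Figure D1:**
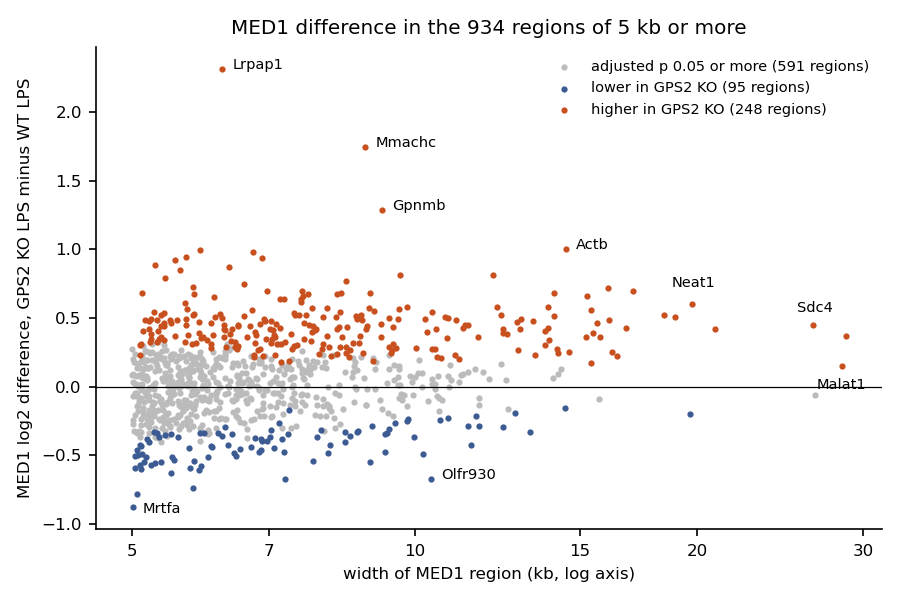
Width of each MED1 region (kb, log axis) against its log2 difference in MED1 reads, GPS2 KO LPS over WT LPS. Each point is 1 of the 934 wide regions, coloured by its call, and some named regions are labelled. The Lrpap1 region stands highest at 2.31 and Mrtfa lowest at −0.88; with library totals alone 95.7% of the regions are lower.

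The 12 widest regions lay at or nearest to genes that included long noncoding RNA genes, a microRNA gene and genes of adhesion and iron storage. The widest (chr16:25036687-25065492, 28805 bp, intergenic) lay nearest to A230028O05Rik and had 1914 and 1928 normalised MED1 reads in KO LPS libraries, against 1489 and 1478 in WT LPS libraries (log2 difference 0.37). The region at Neat1, the scaffold RNA of nuclear paraspeckles (19754 bp), had 1730 and 1796 reads in KO LPS, against 1147 and 1178 in WT LPS (0.60). The region at Malat1, an abundant nuclear RNA (28499 bp), had 1411 and 1430 against 1265 and 1296 (0.15). In each of these the KO libraries lay above both WT libraries.

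The same held at Fth1, the ferritin heavy chain that stores iron (17059 bp), with 1021 and 1006 reads in KO LPS and 605 and 642 in WT LPS libraries (0.70). Sdc4, a heparan sulfate proteoglycan (26575 bp), had 1049 and 996 reads in KO LPS and 731 and 760 in WT LPS (0.45). Irf2bp2 (0.52), the inhibitory receptor gene Lilrb4a (0.51), Mir21a (0.42), 4921513I03Rik (0.43) and Pstpip1 (0.22) were higher too. The 4921513I03Rik region was intergenic, at −142371 bp from the start of that gene. The exceptions among the widest were Aopep, with 395 and 434 reads in KO LPS and 470 and 484 in WT LPS (−0.20, limma adjusted p = 0.0174), and the cytoskeletal adaptor Tns3, with 869 and 847 against 894 and 894 (−0.06, adjusted p = 0.274). The Aopep call was lost without KO LPS library 1 or without WT LPS library 2. With library totals alone, each of the 10 higher regions among the 12 turned lower (−0.07 to −0.62).

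The largest difference among wide regions was at chr5:35506039-35512277, an intergenic stretch of 6238 bp nearest to Lrpap1, a chaperone of lipoprotein receptors, at −60810 bp from its start. It had 227 and 188 normalised reads in KO LPS libraries and 50.0 and 34.0 in WT LPS libraries (log2 difference 2.31, SE 0.16, limma adjusted p = 4.9e-20). Mmachc, a vitamin B12 processing enzyme, followed with 305 and 332 against 89.0 and 100 (1.75). The Mmachc region held 0 PU.1, 0 JunB and 0 RNA polymerase II peaks and 1 ATAC peak. The neighbour of Mmachc on chromosome 4, Prdx1, a peroxiredoxin that removes peroxide, had 398 and 406 against 208 and 209 (0.95). The Gpnmb region, at a transmembrane glycoprotein gene of lipid-loaded macrophages, had 311 and 341 reads in KO LPS and 144 and 123 in WT LPS (1.29). KO LPS reads were about as high above WT LPS at Actb (920 and 909 against 458 and 454, 1.00) and at Ccl2, the monocyte chemokine (209 and 211 against 113 and 97.4, 1.00). Tnfaip2 (0.98) and Nod2, a sensor of bacterial peptidoglycan (0.93), completed the 8 largest.

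Lower regions differed by less. At Mrtfa, a coactivator of serum response factor, KO LPS libraries had 69.7 and 51.1 reads and WT LPS libraries 121 and 99.7 (−0.88, limma adjusted p = 0.00011). Fli1, an ETS factor, had 98.2 and 79.4 against 162 and 134 (−0.74). Noct, a circadian member of the deadenylase family, had 142 and 116 against 192 and 199 (−0.61). Plekha3 (−0.78), 4933433G15Rik (−0.67), Olfr930 (−0.67), St8sia4 (−0.63) and C030013C21Rik (−0.60) made up the rest of the 8. At the edge of the width rule, the 5 narrowest members were 5002 to 5008 bp wide with log2 differences of 0.09 (4930440I19Rik), 0.27 (Gas7), −0.27 (Fyn), −0.88 (Mrtfa) and 0.09 (Lfng). The 5 widest regions outside it were 4993 to 4998 bp wide with −0.47 (Smarca2), 0.26 (Plin2), 0.08 (Fgf18), 0.40 (Wdr26) and 0.09 (Syne3).

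MicroRNAs are short RNAs that pair with target transcripts through their seed, bases 2 to 8. The nearest gene of 24 wide regions was a microRNA gene matched in RefSeq by name, 23 genes in all. Mir6951, also the nearest gene of a wide region, had no match and is not counted, and MED1 was not called there. Of the 24 regions, MED1 was higher at 9 and lower at 1, Mir193a (−0.40), in KO LPS than in WT LPS libraries. Among all wide regions 26.6% were higher and 10.2% lower, and among all MED1 regions 5.17% and 1.92%. Nothing is read from these counts. Mir21a and Mir23a (0.36) were among the higher ones, as were Mir222 (0.70) and Mir221 (0.51), whose 3p products share the seed GCUACAU. The mature sequences, from RefSeq (GRCm38.p6), show the products of these 4 genes and the shared seed; capitals mark the seed.
miR-21a-5p: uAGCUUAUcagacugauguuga
miR-23a-3p: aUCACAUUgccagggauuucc
miR-221-3p: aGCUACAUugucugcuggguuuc
miR-222-3p: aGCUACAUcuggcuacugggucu
Mature microRNAs are not captured by poly(A) RNA-seq, so their levels were not measured.

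PU.1 binding inside the wide regions rose with LPS in WT cells at more peaks than it fell, and fewer peaks were called between the genotypes. Of 1861 PU.1 peaks inside, 433 (23.3%) were higher and 99 (5.32%) lower in WT LPS than in WT untreated libraries (limma); over all PU.1 peaks 11.1% were higher and 7.38% lower. In other MED1 regions the shares were 19.1% and 3.99%. Without WT LPS library 2 the shares inside were 14.6% and 1.29%, without WT untreated library 1 they were 13.2% and 3.39%, and without WT LPS library 1 2.10% were lower. A fit with no precision weights gave 14.1% and 3.39%, and library totals alone 3.22% and 59.5%. At Scara3, a scavenger receptor gene, the peak had 19.3 and 22.2 normalised reads in WT LPS and 1.97 and 1.52 in WT untreated libraries (log2 difference 3.36). At Osm, the cytokine oncostatin M, WT LPS libraries had 15.7 and 21.1 reads and WT untreated libraries 4.59 and 1.52 (2.57). At Ccl5, a T cell chemokine, the values were 33.9 and 28.6 against 8.53 and 3.80 (2.31), and at Smndc1 24.2 and 19 against 5.90 and 0.760 (2.97). Peaks that were lower with LPS included Emp3, with 32.7 and 18 reads in WT LPS and 76.8 and 67.7 in WT untreated libraries (−1.58), and Lyl1, a haematopoietic transcription factor, with 20.6 and 20.1 against 51.2 and 57.0 (−1.37). Hmcn2 (−1.75) and Txn1 (−1.44) were the other 2 of the 4 lowest. In KO cells 304 peaks inside were higher and 167 lower with LPS, where 11.0% and 7.83% of all peaks were called. The difference between the genotypes' LPS responses was called higher at 44 peaks (2.36%) and lower at 127 (6.82%), against 4.24% and 3.86% of all peaks and 2.01% and 5.31% in other MED1 regions.

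With LPS, 26 of the 1861 PU.1 peaks inside (1.40%) were higher and 88 (4.73%) lower in KO than in WT libraries, where 4.97% of all peaks were higher and 3.60% lower; the median log2 difference inside was −0.09. The shares in other MED1 regions were 1.82% and 4.51%. Leaving out any of the 4 libraries lowered these shares to 0.215% to 0.752% higher and 0.913% to 2.36% lower. With library totals alone, which moved the median of all peaks by −0.42, they were 0.269% and 44.0%. Shares of all peaks under these settings are not given here, so a fall particular to the peaks inside cannot be read from them. The 4 largest of the 26 higher peaks lay at Gpnmb, with 34.8 and 31.9 reads in KO LPS and 14.5 and 12.7 in WT LPS libraries (1.27), at Esd, where the groups overlapped with 16.7 and 36 in KO LPS and 16.9 and 7.4 in WT LPS (1.16), and at both PU.1 peaks of the Lrpap1 region. The Lrpap1 peak whose window is printed above had 44.5 and 45.7 reads in KO LPS and 24.2 and 15.9 in WT LPS (1.21), and its other peak 70.9 and 95.6 against 47.2 and 31.7 (1.1). The Pid1 peak printed above had 27.8 and 22.2 in KO LPS and 77.4 and 61.3 in WT LPS (−1.43), while Gm17059 (−1.81), Zfp513 (−1.47) and Nr1d1, a haem-binding nuclear receptor (−1.33), were the other lowest peaks.

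Without LPS, 105 PU.1 peaks inside (5.64%) were higher and 47 (2.53%) lower in KO untreated than in WT untreated libraries, against 4.73% and 3.11% of all peaks, so the shares inside were near those of the whole table. Leaving out any of the 4 libraries lowered them to 1.83% to 3.76% higher and 0.322% to 1.67% lower, and a fit with no precision weights had 1.77% higher. With library totals alone they were 0.107% and 58.1%. Lrpap1 again led, with 63.3 and 44.7 reads in KO untreated and 16.4 and 13.7 in WT untreated libraries (1.82). Fosl1, an AP-1 subunit gene, followed with 19 and 16.9 against 4.59 and 11.4 (1.35), then Rasgef1b (1.34) and Gpnmb (1.28). The lowest were Gm17059, with 1.05 and 2.42 reads in KO untreated and 12.5 and 12.9 in WT untreated libraries (−2.57), 1110002J07Rik (−1.60), Arpc2, a subunit of the actin-nucleating complex (−1.51), and a peak in the Ctrc region (−1.48).

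JunB binding in wide regions was lower in KO cells after LPS. Of 2179 JunB peaks inside, 558 (25.6%) were lower and 82 (3.76%) higher in KO LPS than in WT LPS libraries, with a median log2 difference of −0.14 (limma); over all JunB peaks 14.4% were lower and 14.7% higher. Peaks in other MED1 regions had 20.6% lower and 8.84% higher. These calls depend on the precision weights of the fit: without them 0 peaks inside were called in either direction at an adjusted p under 0.05 (0.00510% of all peaks lower and 0.0221% higher), and at an unadjusted p under 0.05 the fit had 233 lower and 17 higher, against 6.58% and 5.86% of all peaks. Leaving out KO LPS library 2 left 14% lower, leaving out WT LPS library 1 left 1.93% higher, and library totals alone gave 46.4% lower and 1.15% higher. In intron 1 of Sdc4 a peak had 11.9 and 15.7 reads in KO LPS and 38.1 and 37.5 in WT LPS libraries (−1.43), and its strongest peak, printed above, had 70.3 and 70.7 against 94.1 and 87.7 (−0.37). The printed Noct peak had 50.9 and 39.7 reads in KO LPS and 60.5 and 58.7 in WT LPS (−0.43). The gene of adrenomedullin, Adm, a vasodilator peptide (−1.46), and histone genes of chromosome 13 (Hist1h2bb −1.66, Hist1h3g −1.48) were the other lowest peaks. The highest were both at Lrpap1, with 38.5 and 27.1 reads in KO LPS and 7.90 and 6.18 in WT LPS (2.14), and 79.8 and 77.0 against 26.5 and 27.8 at the printed window (1.52); Snord2 (1.32) and Ninj1 (1.01) followed.

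The JunB peaks that were lower in KO cells with LPS held the AP-1 motif TGANTCA within 200 bases more often than those that were higher: 343 of 558 (61.5%) against 30 of 82 (36.6%). Among all 58840 JunB windows 52.4% held it, and among the 2179 inside 51.1%. PU.1 windows inside wide regions held the PU.1 motif in 19% of cases and the AP-1 motif in 19.3%, against 25.1% and 13.8% of all PU.1 windows. The E-box CACGTG stood in 4.73% of the JunB windows inside and 4.10% of all. These are letter matches and were not tested, and the JunB calls depend on the precision weights, as described above.

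LPS itself moved JunB in both directions inside the wide regions: 687 peaks (31.5%) were higher and 450 (20.7%) lower in WT LPS than in WT untreated libraries, against 17.3% and 21.4% of all peaks and 21.8% and 23.6% in other MED1 regions. At Morrbid, a long noncoding RNA of myeloid survival, the peak had 43.3 and 45.6 reads in WT LPS and 4.86 and 0 in WT untreated libraries. At Rbpj it had 67.0 and 68.4 against 3.65 and 4.18 (3.90), and at Hivep3, a zinc finger protein, 60.5 and 61.0 against 1.22 and 9.75 (3.89). Peaks at Ctu1 (3.69), Cfl1 (−1.89), Eif5a (−1.77), Lrp1 (−1.69) and Snord35a (−1.69) were the other extremes, but JunB reads in peaks were 28.8% and 29.2% of the WT LPS libraries and 6.91% and 7.51% of the WT untreated ones. With library totals alone the median of all peaks moved by 2.02, those 4 lower peaks turned higher (0.14, 0.25, 0.35 and 0.35), and 99.5% of the peaks inside were higher and 0% lower. Without WT untreated library 1 the shares were 19.5% and 13.4%, and with no precision weights 12.3% were lower. In KO cells 414 peaks inside were higher and 497 lower with LPS, against 14.9% and 19.9% of all peaks and 13.9% and 30.8% in other MED1 regions. The difference between the genotypes' responses was called higher at 22 and lower at 97, against 1.87% and 3.37% of all peaks. Inside wide regions these were 1.01% and 4.45%, and in other MED1 regions 1.28% and 6.47%.

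Without LPS, 95 JunB peaks inside (4.36%) were higher and 57 (2.62%) lower in KO untreated than in WT untreated libraries, where 6.29% and 2.16% of all peaks and 11.8% and 2.48% of those in other MED1 regions were called. The reads behind these peaks were few. Without WT untreated library 1 or 2 the higher share was 1.19% or 1.06% and the lower share 1.1% or 0.734%, without KO untreated library 1 the lower share was 0.780%, and with no precision weights it was 6.42%. With library totals alone 1.65% were higher and 12.6% lower. At Lrpap1 the KO untreated libraries had 18.1 and 27.9 reads and the WT untreated libraries 1.22 and 5.57 (2.82), and at Chst3, a chondroitin sulfotransferase gene, 24.1 and 20.3 against 3.65 and 4.18 (2.37). Smim20 had 12.1 and 15.2 reads in KO untreated and 3.65 and 0 in WT untreated, and Ptbp1, a splicing repressor gene, 16.1 and 10.1 against 3.65 and 0. Syne3 had 0 and 0 reads in KO untreated and 7.29 and 5.57 in WT untreated, and Phlda1 0 and 2.54 against 9.72 and 11.1; Rassf4 (12.1 and 0 against 17 and 29.2) and Ggta1 (0 and 7.61 against 13.4 and 15.3) were the other 2 lowest.

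Open chromatin inside the wide regions differed at few peaks, with more higher than lower in KO cells. Of 1944 ATAC peaks inside, 125 (6.43%) were higher and 69 (3.55%) lower in KO than in control cells without LPS (limma), against 4.04% and 3.16% of all peaks and 4.68% and 3.37% in other MED1 regions. Leaving out 1 library lowered these shares to as little as 4.12% higher (without KO replicate 1 or control replicate 1) and 1.95% lower (without control replicate 1; 2.16%, 2.21% and 2.31% without KO replicate 2, control replicate 2 or control replicate 3). A fit with no trend in the spread gave 4.17% and 2.26%. In wide regions where MED1 was higher in KO LPS libraries, 72 of 603 ATAC peaks were higher and 9 lower. Where MED1 was lower, 10 of 197 were higher and 14 lower, and where MED1 was not called, 43 of 1144 were higher and 46 lower. The ATAC peak at Lrpap1 had log2 signals of 5.30, 5.19 and 5.38 in KO and 4.57, 4.52 and 4.47 in control libraries (difference 0.77, SE 0.08, adjusted p = 3.2e-16). The Gpnmb peak had 7.36, 7.23 and 7.29 in KO and 6.72, 6.56 and 6.60 in control libraries (0.67), and the Lilrb4a region held peaks with differences of 0.77 and 0.74. The groups did not overlap at these peaks. The lowest peak lay in the Sdc4 region, with 4.29, 4.29 and 4.33 in KO and 4.97, 4.83 and 4.96 in control libraries (−0.62), overlapping its lowest JunB peak; A330074K22Rik (−0.61), Bcas1os2 (−0.60) and D330050G23Rik (−0.55) followed.

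JunB and PU.1 peaks were also counted by the MED1 call of their region, with LPS. JunB peaks were lower in KO LPS libraries at 80 of 209 (38.3%) where MED1 was lower, 104 of 653 (15.9%) where it was higher and 374 of 1317 (28.4%) where it was not called. PU.1 peaks were lower at 13 of 176, 18 of 552 and 57 of 1133 in these classes, and higher at 0, 11 and 15. The share of lower JunB peaks was highest where MED1 was lower, and each class had more lower than higher JunB peaks (3, 38 and 41 were higher). Over all JunB peaks 14.4% were lower and 14.7% higher, and over all PU.1 peaks 3.60% and 4.97%. The JunB calls inside were lost without precision weights, and the MED1 calls depend on the scaling, so nothing is read from these classes. These shares were not tested against each other.

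**Figure D2:**
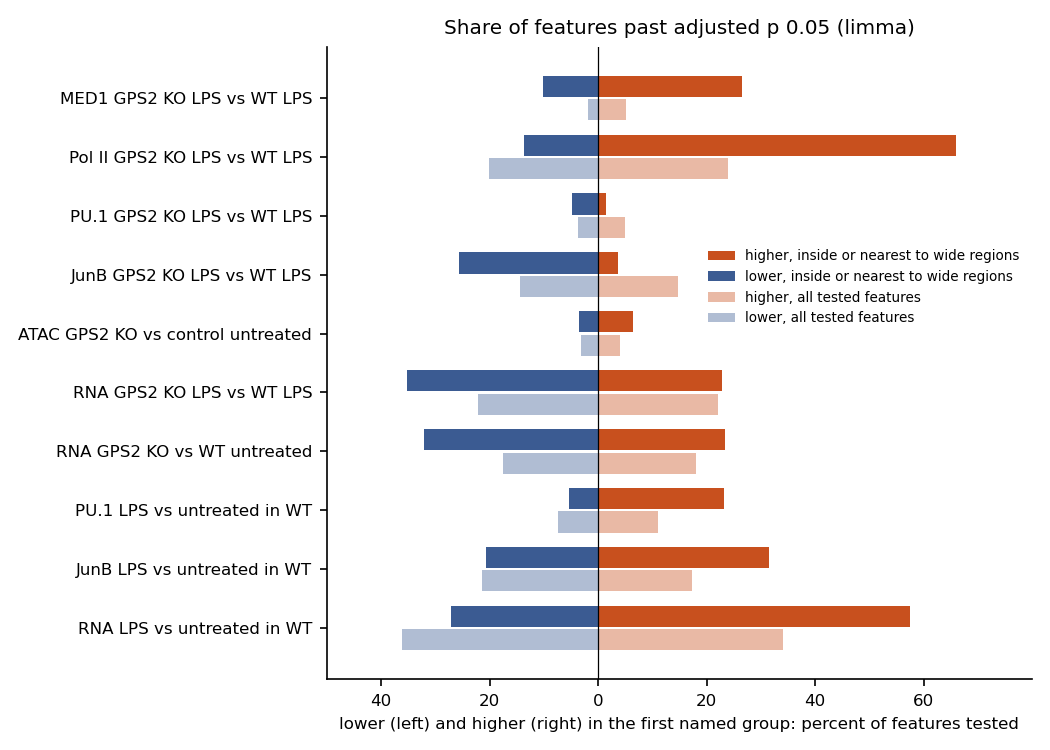
Share of features (percent) called higher, to the right, and lower, to the left, at a limma adjusted p under 0.05 for each assay and comparison. Full bars are peaks inside wide MED1 regions or their nearest genes, and pale bars are all tested features. Inside wide regions 25.6% of JunB peaks were lower in KO LPS than in WT LPS libraries. The share was 14.4% of all JunB peaks and 20.6% of those in other MED1 regions. The JunB calls inside wide regions depend on the precision weights of the fit and were lost without them. In RNA 35.1% of genes were lower, against 22.1% of all genes, but these genes had more reads, so differences are easier to call.

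Relative to the typical RNA polymerase II region, wide regions had more RNA polymerase II in KO LPS libraries than in those labelled WT LPS. The difference was largest at genes that LPS induces. Reads in RNA polymerase II regions were 14.2% and 14.4% of the KO LPS libraries and 46.4% and 45.0% of those labelled WT LPS. With library totals alone the median log2 difference inside wide regions was −1.22, so the direction over the set depends on the scaling. Over Acod1, which makes itaconate in activated macrophages, the KO LPS libraries had 8284 and 8085 normalised reads and those labelled WT LPS 133 and 153 (log2 difference 5.84). At Ccl5 they had 3906 and 3688 against 31 and 32.9 (6.88), and at Csrnp1 1410 and 1393 against 42.9 and 43.0 (5.02). RNA was measured after LPS for 6 hours and RNA polymerase II after 2 hours. Acod1 RNA, however, was 68691 normalised reads in KO LPS and 62521 in WT LPS cells, and 1001 and 515 in untreated KO and WT cells. Across the wide regions, the median RNA polymerase II difference was 2.33 where LPS raised the gene's RNA in WT cells by more than 4 on the log2 scale (44 of 49 higher, 0 lower), 1.00 where it raised it by less, 0.54 where it was not called and 0.06 where it lowered it. MED1 at the wide regions of the same gene classes had medians of 0.21, 0.13, 0.03 and 0.01. Genotype and LPS state in the RNA polymerase II comparison cannot be told apart from these libraries.

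**Figure D3:**
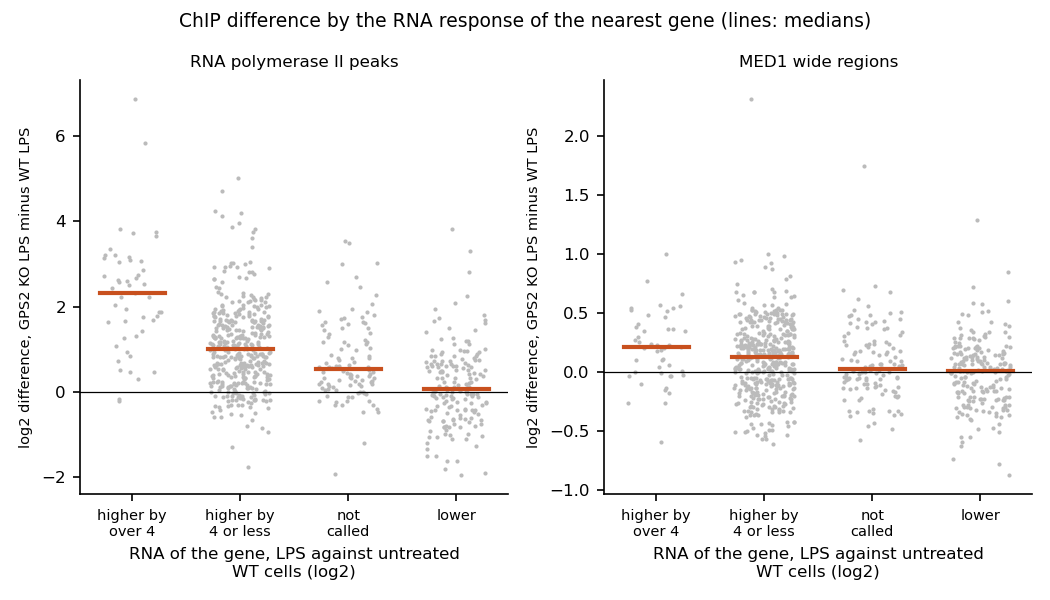
Log2 difference of KO LPS over WT LPS libraries for RNA polymerase II (left) and MED1 (right) in wide regions, grouped by how LPS moved the RNA of the nearest gene in WT cells. Points are regions and lines are medians. The RNA polymerase II median is 2.33 for genes raised by more than 4 and 0.06 for genes lowered by LPS, whereas the MED1 medians run between 0.21 and 0.01. All are relative to the typical region of the assay. With library totals alone the medians over wide regions are −1.22 for RNA polymerase II and −0.70 for MED1.

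With that limit, 554 of 840 RNA polymerase II regions inside (66.0%) were higher and 115 (13.7%) lower, where 23.9% and 20.0% of all regions were called, and in other MED1 regions 20.9% and 23.4%. With library totals alone, which moved the median of all regions by −1.88, 10.8% were higher and 78.0% lower. At genes whose RNA LPS did not raise in WT cells, 51.7% were higher and 22.3% lower. At regions where MED1 was higher, 176 of 196 were higher and 8 lower. Where MED1 was lower, 54 of 98 were higher and 21 lower. The Lrpap1 region had 401 and 431 reads in KO LPS and 15.0 and 16.2 in the libraries labelled WT LPS (4.72). The lowest were Txnip, an inhibitor of glucose uptake, with 1056 and 929 against 3866 and 3888 (−1.97), the valyl-tRNA synthetase gene Vars (−1.94), the fatty acid desaturase gene Scd2 (−1.92) and St8sia4 (−1.81). In RNA with LPS, Txnip differed by 0.48, Vars by −0.35, Scd2 by −0.03 and St8sia4 by 0.05 between KO and WT cells; the last 2 did not pass the test, but were called without WT LPS replicate 4 at −0.16 and −0.18.

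The genes of wide regions were highly expressed, and LPS raised more of them than it lowered. Their regions were called on MED1 libraries with LPS only, so nothing is read from the LPS shares beside those of all genes. Of the 790 nearest genes, 747 were among the genes of the RNA data and 683 had enough reads to be tested. Their median level per kb of transcript was 314 normalised reads in KO LPS cells, 317 in WT LPS, 181 in KO untreated and 194 in WT untreated cells, against 86.0, 86.5, 91.4 and 88.6 for the other genes. LPS raised 393 (57.5%) and lowered 185 (27.1%) in WT cells, where 34.2% and 36.2% of all genes were called. Without WT LPS replicate 4 the shares were 62.7% and 29.6%, against 39.2% and 40.7% of all genes. In KO cells LPS raised 386 and lowered 172, with 31.5% and 36.1% of all genes called. In these bulk libraries a difference in the number of cells in a state and in RNA per cell cannot be told apart.

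More genes of wide regions were lower than higher in KO cells. These genes had more reads per kb than the other genes, so a difference of given size is easier to call in them. Nothing is therefore read from their shares called being above those of all genes. With LPS, 240 of 683 (35.1%) were lower and 156 (22.8%) higher in KO than in WT cells, with a median log2 difference of −0.04; over all genes 22.1% were lower and 22.1% higher (limma on log2 of the value plus 1). Without WT LPS replicate 4, 45.4% were lower and 27.6% higher, against 28.5% and 29.2% of all genes. Without LPS, 219 (32.1%) were lower and 160 (23.4%) higher, against 17.5% and 18% of all genes, and 135 genes (19.8%) were lower and 80 (11.7%) higher in both states, against 10.4% and 9.32% of all genes. Without WT LPS replicate 4 the shares in both states were 30% and 17.4%, against 16.8% and 15.6% of all genes. Since the LPS-free fit shares its spread estimate with the LPS groups, leaving out WT LPS replicate 4 changed it to 45.9% and 33.8%, against 29.7% and 29.1% of all genes. The difference between the genotypes' LPS responses was called lower for 137 (20.1%) and higher for 113 (16.5%), where 10.4% and 10.2% of all genes were called. Without that replicate it was called lower for 31.9% and higher for 27.4%, against 18.8% and 20.1% of all genes.

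RNA differences were mixed in every class of MED1 call. Of 193 tested genes with a region of higher MED1 and none lower, 75 were lower and 49 higher in KO than in WT cells with LPS. Of 68 with a region of lower MED1 and none higher, 23 were lower and 18 higher, and of 418 with no region called, 141 were lower and 88 higher. Without WT LPS replicate 4 the counts were 85 and 62 of 196, 30 and 22 of 68, and 197 and 104 of 421. In WT cells LPS raised 139 and lowered 27 of the 193, raised 31 and lowered 27 of the 68, and raised 219 and lowered 131 of the 418. The genes of the regions with the largest MED1 differences were mixed in RNA with LPS. Ccl2 (log2 difference 0.67), Prdx1 (0.56) and Lrpap1 (0.18) were higher and Actb (−0.33) lower, while Nod2 (0.06), Tnfaip2 (0.05) and Mmachc (−0.19) did not pass the test. Of the lower MED1 regions, Fli1 RNA was higher (0.78) and Noct RNA lower (−1.37).

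Gpnmb had the largest RNA increase in KO cells with and without LPS. Its RNA was 11310, 11173, 11279 and 11214 normalised reads in KO LPS and 1015, 1016, 1030 and 718 in WT LPS libraries (log2 difference 3.59, SE 0.09). Without LPS it was 40264, 38307, 39350 and 38754 in KO and 2040, 2134, 2214 and 2127 in WT libraries (4.20, SE 0.09). The groups did not overlap. In its region MED1, the PU.1 and ATAC peaks named above and the strongest JunB peak (0.58 with LPS) were each higher in KO libraries. The region held 2 PU.1, 4 JunB and 4 ATAC peaks, and not all of them are given here. Plau, the urokinase plasminogen activator, had 1234, 1138, 1230 and 1154 in KO LPS and 155, 135, 166 and 192 in WT LPS libraries (2.88). Id2, an inhibitor of basic helix-loop-helix factors, had 692, 688, 662 and 691 against 139, 147, 183 and 240 (1.98), but it was lower in KO cells without LPS (−0.39). Rapgef5 (2.47), Raet1d, a ligand of the NKG2D receptor (2.33), the filamin gene Flnc (2.30), Hivep3 (2.05) and Arhgap22 (1.99) completed the 8 largest. The Hivep3 value depends on WT LPS replicate 4 and was 1.31 without it.

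The lower genes included cytokine, protease and feedback genes. Mmp14, a membrane-bound matrix metalloproteinase, had 71.0, 55.0, 66.2 and 59.3 reads in KO LPS and 1180, 1036, 1099 and 1419 in WT LPS libraries (−4.21, SE 0.16). Klf4, a Krüppel-like factor, had 15.0, 6.79, 6.02 and 7.65 against 145, 127, 127 and 68.5 (−3.61, SE 0.24). Both were far apart between the genotypes in every library. Il10, the anti-inflammatory cytokine, had 274, 269, 279 and 267 in KO LPS and 1211, 1270, 1458 and 2141 in WT LPS (−2.44). Dusp1, a phosphatase that switches off MAP kinases, had 1200, 1218, 1219 and 1202 against 5132, 5155, 5344 and 5090 (−2.10). Tnfrsf9, a costimulatory receptor (−3.16), Rbfox1 (−2.45), Serinc2 (−2.34) and the syndecan gene Sdc1 (−2.16) made up the 8. Dusp1 had 2 wide MED1 regions, both higher in KO LPS libraries, and those nearest to Mmp14, Klf4 and Il10 were not called; the Klf4 region lay at −200609 bp from the gene's start.

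Without LPS the largest differences included receptors and transporters. Cd36, the fatty acid and lipoprotein scavenger receptor, had 108, 91.1, 123 and 93.4 reads in KO untreated and 2055, 1990, 2146 and 2225 in WT untreated libraries (−4.33, SE 0.11), and 1778, 1866, 1654 and 1781 in KO LPS and 6567, 7467, 7033 and 5001 in WT LPS libraries (−1.87). Its MED1 region was lower in KO LPS libraries. Il1rn, the interleukin 1 receptor antagonist, had 1724, 1660, 1841 and 1758 in KO untreated and 407, 374, 377 and 368 in WT untreated libraries (2.19), but was lower in KO cells with LPS (−0.39). Slc7a11, the cystine importer (3.11), Lilr4b (3.34), Dhrs3, a retinal reductase (2.59), Arhgap22 (3.68), Raet1d (2.30) and 4833427F10Rik (2.16) were the other higher genes. Serinc2 (−3.31), Ocstamp, needed for osteoclast fusion (−2.93), Rbfox1 (−2.19), Olfml3 (−2.07), Gadd45g (−1.99) and Rdm1 (−1.92) were lower. Mmp14 was lower too, but KO untreated libraries had 0.561, 0, 0 and 0 reads and WT untreated libraries 5.91, 5.49, 5.81 and 4.75. Lilr4b and its paralogue Lilrb4a share sequence, and reads could be split between them.

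**Figure D4:**
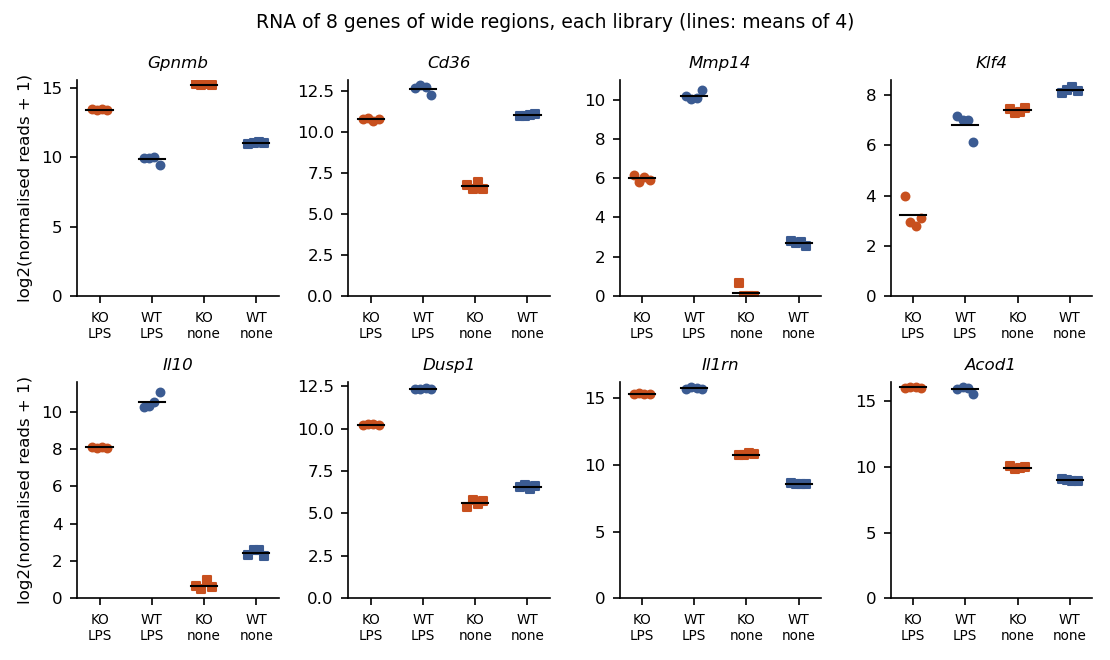
RNA of 8 genes of wide MED1 regions, as log2 of normalised reads plus 1, in KO LPS, WT LPS, KO untreated and WT untreated libraries. Points are libraries and lines are means of 4. Gpnmb is higher in KO cells in both states, Cd36 and Mmp14 are lower in both, and Il1rn is higher in KO cells without LPS and lower with it.

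Gene lists of macrophage and LPS biology were counted over the wide regions, and the counts stand beside the shares of all MED1 regions and all genes given above. MED1 directions in these lists hold relative to the typical region, and with library totals alone 95.7% of wide regions turned lower. Of 33 cytokines and inflammatory mediators, 6 had a wide region, and MED1 was higher at 4 of the 6 regions and lower at 0. LPS raised the RNA of all 6 in WT cells, with a median log2 difference of 7.03, and in KO cells with LPS 2 were higher and 3 lower (1 and 3 without WT LPS replicate 4). Acod1 had 68691 ± 1370 normalised reads in KO LPS and 62521 ± 9361 in WT LPS cells (SD, n = 4 each), which did not pass the test. Ptges, which makes prostaglandin E2, had 38.8 ± 7.88 against 79.3 ± 3.78 (−1.03). Lif, a cytokine of the interleukin 6 family, had 1931 ± 66.8 against 1061 ± 162 (0.88), a call lost without WT LPS replicate 4 (0.77).

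Of 20 chemokines, 7 had wide regions. MED1 was higher at 7 of their 10 regions and lower at 0, against 26.6% and 10.2% of all wide regions. All 7 rose with LPS in WT cells, and in KO cells 3 were higher and 3 lower with LPS (4 and 3 without WT LPS replicate 4), while 5 were higher and 1 lower without LPS (5 and 2 without that replicate). Ccl3 had 138021 ± 3474 reads in KO LPS and 85828 ± 18960 in WT LPS cells (0.71), whereas Ccl9 had 41723 ± 1451 against 54365 ± 5307 (−0.38) and Ccl5 9631 ± 128 against 20147 ± 5510 (−1.03). Ccl4 had 25282 ± 618 against 29555 ± 14375 and did not pass the test; its difference of −0.12 was 0.18, and called, without WT LPS replicate 4. Without LPS, Ccl4 had 896 ± 32.7 reads in KO and 229 ± 20.5 in WT cells (1.97).

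Of 50 NF-kB subunits, inhibitors and signalling brakes, 20 had wide regions. MED1 was higher at 14 and lower at 3 of their 30 regions, against 26.6% and 10.2% of all wide regions. LPS raised 19 of the 20 in WT cells, and with LPS 9 were lower and 4 higher in KO cells (12 and 5 without WT LPS replicate 4). Besides Dusp1, Zfp36, which destabilises cytokine mRNA, had 10642 ± 219 reads in KO LPS and 17303 ± 631 in WT LPS cells (−0.70), and Nfkbia, the NF-kB inhibitor, 8925 ± 83.1 against 11836 ± 1927 (−0.39). Dusp4 was higher, with 966 ± 43.7 against 596 ± 212 (0.79, and 0.48 without WT LPS replicate 4). JunB peaks of these regions were lower at 23 of 77 and higher at 1 in KO LPS libraries. Inside all wide regions 25.6% of JunB peaks were lower and 3.76% higher, and of all JunB peaks 14.4% and 14.7%. These calls depend on the precision weights, as described above, and nothing is read from this count.

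Of 35 AP-1 and immediate early factors, 19 had wide regions. MED1 was higher at 9 and lower at 0 of their 21 regions, against 26.6% and 10.2% of all wide regions. With LPS 8 of 18 tested were lower and 5 higher in KO cells (9 and 5 of 19 without WT LPS replicate 4). Junb itself had 4859 ± 246 reads in KO LPS and 9317 ± 1975 in WT LPS cells (−0.92), Fos 487 ± 11.1 against 779 ± 21.1 (−0.68) and Btg1, an antiproliferative gene, 2805 ± 17.9 against 4686 ± 268 (−0.74). Atf3, a stress-induced repressor, was higher, with 2889 ± 28.1 against 2272 ± 143 (0.35). Of 46 interferon and antiviral genes, 7 had wide regions, and MED1 was higher at 6 and lower at 0 of 10 regions. Irf2bp2 RNA was 233 ± 24.4 reads in KO LPS and 318 ± 24.3 in WT LPS cells (−0.45), Isg15, a ubiquitin-like antiviral protein, 7029 ± 129 against 10612 ± 4513 (−0.51, and −0.24 without WT LPS replicate 4), while Oasl1 (0.09) and Irf5 (0.10) did not pass the test.

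Of 44 macrophage lineage transcription factors, 19 had wide regions. MED1 was higher at 9 and lower at 3 of their 27 regions, against 26.6% and 10.2% of all wide regions. With LPS 8 were lower and 6 higher in KO cells (12 and 6 without WT LPS replicate 4). Spi1, which encodes PU.1, had 4161 ± 78.0 reads in KO LPS and 6042 ± 717 in WT LPS cells (−0.53), and 2075 ± 51.6 against 3230 ± 164 without LPS (−0.64), with MED1 higher at both of its regions. Runx1, a haematopoietic regulator, had 398 ± 25.7 against 875 ± 202 with LPS (−1.1), and Rbpj did not pass the test with LPS (0.12). Of 61 macrophage surface and receptor genes, 18 had wide regions, and MED1 was higher at 5 and lower at 3 of 24 regions. With LPS 7 were higher and 4 lower of 17 tested (9 and 6 without WT LPS replicate 4). Cd9 (−0.18), Sdc4 (0.08), the urokinase receptor gene Plaur (0.07) and the integrin gene Itga5 (−0.04) did not pass the test, and the last 3 were called without WT LPS replicate 4 at 0.14, 0.17 and −0.14.

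Of 39 lysosome, lipid and matrix genes, 13 had wide regions. MED1 was higher at 8 and lower at 0 of their 16 regions, against 26.6% and 10.2% of all wide regions. This list had more higher than lower genes in KO cells: 6 and 3 of 13 with LPS, with and without WT LPS replicate 4, and 8 and 2 without LPS. The lysosomal protease genes Ctsd, with 16824 ± 309 reads in KO LPS and 9355 ± 722 in WT LPS cells (0.85), and Ctsb, with 32071 ± 580 against 24840 ± 661 (0.37), were higher, and without LPS the values were 26538 ± 637 against 10675 ± 218 (1.31) and 42184 ± 667 against 19186 ± 483 (1.14). Lpl, lipoprotein lipase, had 42463 ± 617 against 28576 ± 1113 with LPS (0.57), and Cd68 did not pass the test (0.22). Of 35 cytoskeleton, housekeeping and nuclear RNA genes, 19 had wide regions, and MED1 was higher at 15 and lower at 2 of 24 regions, while with LPS 9 were lower and 3 higher in RNA of KO cells (9 and 5 without WT LPS replicate 4). Neat1, where MED1 was higher, had 2208 ± 90.6 reads in KO LPS and 3188 ± 370 in WT LPS cells (−0.52), whereas Fth1 had 117742 ± 3822 against 73546 ± 31690 (0.76, and 1.03 without WT LPS replicate 4). Malat1 (0.13) did not pass the test. Genes such as Fth1 and Actb have processed copies in the genome, and the handling of reads that match several places is not given in the sources used here. Of 6 genes of the GPS2 corepressor complex, Tbl1xr1 alone had wide regions, 2 of them, with MED1 called at 0; its RNA was 726 ± 23.5 reads in KO LPS and 594 ± 120 in WT LPS cells (0.31, and 0.17 without WT LPS replicate 4), a call lost without any one of KO LPS replicates 1 to 4 or WT LPS replicate 3.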

How the data were processed

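Members, lists and tests were chosen with earlier results of these data known. The deposited RNA and ChIP values are, per the file headers, reads per 10000000 mapped reads by HOMER; the deposited ATAC values are on a log2 scale. Per the submitters' processing notes the authors used BWA, Bowtie2, HISAT2, MACS2, HOMER, DESeq2 and edgeR, with the build mm9; versions and the roles of the tools are not given in the sources used here. MED1 regions are the authors' merged peaks of all 4 libraries, and 8 other columns of per-sample values were not used. The series holds 247 samples, of which 46 were used, and MED1 and RNA polymerase II in untreated WT cells were not analysed here. Whether counting used strand is not given, so overlapping and antisense genes are uncertain.

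Values were divided by a trimmed mean (TMM) scale factor per library. RNA and ChIP values gave whole reads (within 0.05 reads) in 100% of values of up to 200 reads; ChIP values were fitted with limma 3.58.1 and voom precision weights on those reads; RNA was fitted on log2 of the value plus 1, and ATAC on the deposited log2 values, both with a trended, robust spread. Features needed 10 reads in a library of median depth and 15 in all, which left 26052 MED1 regions, 23081 RNA polymerase II regions, 52009 PU.1, 58810 JunB and 73206 ATAC peaks and 11791 genes. P-values were adjusted over each whole table (Benjamini-Hochberg), with a threshold of 0.05. Groups of an assay shared 1 spread estimate. The fits were tested on simulated data with as many higher as lower changes in otherwise equal groups. That setting does not cover many unbalanced differences between groups, or a library as far apart as WT LPS replicate 4. The fits took the 2 libraries of a ChIP group as replicates, but the pair is read as 1 sample and is given no SD. Nothing states that RNA libraries came from separate cultures, so p-values measure the spread between these samples, which may be technical.

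Named items were the 12 widest regions, the 8 largest MED1 and RNA changes in each direction, the 4 largest per direction for the other assays, up to 4 genes per list by MED1 reads, 5 regions on each side of the width threshold and the 6 genes with most wide regions; 1 of these items is not reported here. Alternatives were other scalings, filters, pseudocounts, weights, widths, and each replicate left out. R 4.3.3, Python 3.11.15 and pysam 0.24.0 were used.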

Additional observations from a re-analysis of the deposited data

Results flagged for a closer look

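An RNA library far from the other 3 of its group was found in 22 of 240 groups of 4 tested (gap over range above Dixon's 95% value for 4); chance gives about 1 in 20 groups. WT LPS replicate 4 was that library in 8 of them. It had 718 normalised reads of Gpnmb (others 1015 to 1030), 30.7 of Rdm1 (18.3 to 18.5), 50878 of Ccl4 (19795 to 25038), 14695.5 of Nfkbia, 17742 of Oasl1, 2637 of Irf5, 17322 of Isg15 (7634 to 9088) and 496 of Gps2 (420.43 to 424).

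The other WT libraries were WT LPS replicate 1 with 1961.5 of Malat1 and WT untreated replicate 1 with 4079.69 of Cd9. In KO LPS cells the libraries were replicate 3 with 662 of Id2, replicate 2 with 26206 of Ccl4, 143229 of Ccl3, 43375 of Lpl and 123456 of Fth1, replicate 1 with 901 of Dusp4, and replicate 4 with 20764 of Sdc4. In KO untreated cells they were replicate 1 with 0.561 of Mmp14 (0 in the others), replicate 3 with 1282 of Slc7a11 and 962 of Irf5, replicate 4 with 48.0 of Ccl5 and replicate 2 with 2207 of Sdc4.

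The KO against WT difference itself differed between LPS and untreated cells for 19 named genes, by the interaction term of the limma fit at an adjusted p under 0.05. The log2 difference with LPS minus that without was positive for Cd36 (2.47), Id2 (2.36), Plau (1.44), Ocstamp (1.23) and Serinc2 (0.97). It was negative for Lilr4b (−2.92), Klf4 (−2.80), Slc7a11 (−2.71), Il1rn (−2.58), Tnfrsf9 (−2.25), Dhrs3 (−1.81), 4833427F10Rik (−1.77), Arhgap22 (−1.69), Mmp14 (−1.68), Sdc1 (−1.29), Dusp1 (−1.14), Il10 (−0.68), Gpnmb (−0.61) and Rbfox1 (−0.26). Mmp14 was at or near 0 in KO untreated libraries, so its value rests on the pseudocount. Without WT LPS replicate 4 the call was lost for Il10 (−0.49, adjusted p = 0.0513) and kept for the other 18.

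The same held for 9 named peaks, whose fits took the 2 libraries of each group as replicates, though a pair is read as 1 sample. PU.1 peaks had 2.13 at 1110002J07Rik, 2.09 at Esd, 1.58 at Arpc2, −1.49 at Nr1d1, −1.66 at Zfp513 and −2.17 at Pid1. JunB peaks had 2.53 at Rassf4, −2.80 at Chst3 and −3.62 at Ptbp1, each with untreated libraries at few reads or 0.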

How the results depend on the processing

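Shares of members are given as percent higher and percent lower. For ChIP and ATAC the shares of all features under the same setting are not given beside them. How far the whole table moved alike cannot be read from these values. With library totals alone they were 0.535 and 95.7 (MED1), 10.8 and 78.0 (RNA polymerase II), 0.269 and 44.0 (PU.1, KO LPS against WT LPS), 0.107 and 58.1 (PU.1, KO against WT untreated), 3.22 and 59.5 (PU.1, LPS in WT), 1.15 and 46.4 (JunB, KO LPS against WT LPS), 1.65 and 12.6 (JunB, KO against WT untreated) and 99.5 and 0 (JunB, LPS in WT). That scaling compares reads with all mapped reads, of which the share in regions differed between groups. It turned the MED1 difference at A230028O05Rik (−0.40), Malat1 (−0.62), Sdc4 (−0.32), Mir21a (−0.35), Neat1 (−0.17), Lilrb4a (−0.26), Irf2bp2 (−0.25), Fth1 (−0.070), 4921513I03Rik (−0.34) and Pstpip1 (−0.55), and the JunB LPS difference at Cfl1 (0.14), Eif5a (0.25), Lrp1 (0.35) and Snord35a (0.35).

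With no precision weights PU.1 was 1.77 higher for KO against WT untreated and 14.1 and 3.39 for LPS in WT, and JunB was 0 and 0 for KO LPS against WT LPS, 6.42 lower for KO against WT untreated and 12.3 lower for LPS in WT. ATAC with no trend was 4.17 and 2.26. A width of at least 8000 bp gave 47.2 higher for MED1 and 10.8 higher for ATAC. Genes that LPS did not raise gave 22.3 lower for RNA polymerase II; this choice, the one without Rn45s and the LPS libraries left out of the untreated RNA comparison were added after seeing the data. The cause was not tested for any of these.

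Leaving out 1 replicate gave, lowest to highest, 19.2 to 21.3 and 4.6 to 7.82 (MED1), 63.4 to 65.1 and 11.5 to 13.4 (RNA polymerase II), 0.215 to 0.752 and 0.913 to 2.36 (PU.1, KO LPS), 1.83 to 3.76 and 0.322 to 1.67 (PU.1, KO untreated), 13.2 to 17 and 1.29 to 3.76 (PU.1, LPS in WT), 1.93 to 2.98 and 14 to 21.2 (JunB, KO LPS), 1.06 to 4.91 and 0.734 to 2.07 (JunB, KO untreated), 19.5 to 30.5 and 13.4 to 19 (JunB, LPS in WT) and 4.12 to 5.35 and 1.95 to 3.03 (ATAC). For RNA the ranges were 20.5 to 27.6 and 32 to 45.4 (KO LPS), 20.3 to 33.8 and 27.7 to 45.9 (KO untreated) and 55.9 to 62.7 and 25.8 to 29.6 (LPS in WT). Without WT LPS replicate 4 the Ccl4 RNA difference turned to 0.18; without the others it went down to −0.28. A left-out ChIP library leaves 1 in its group, which is then assumed to vary like the other groups.

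Replicate numbers did not pair the samples: deviations from group means correlated between −0.367 and 0.211 for RNA and between −0.0124 and 0.00492 for ChIP and ATAC. With the replicate block the shares were 26.7 and 10.4 (MED1), 66.7 and 13.8 (RNA polymerase II), 1.5 and 5.10, 5.70 and 2.58, and 22.8 and 5.10 (PU.1 in the order above), 2.66 and 21.5, 6.2 and 3.44, and 31.3 and 20.7 (JunB), 6.33 and 3.55 (ATAC), and 21.5 and 33.7, 22.1 and 30.5, and 56.8 and 26.5 (RNA). Of 210 named values, 139 kept direction and side of the threshold under every alternative run, 15 turned, 43 lost and 13 gained a call at least once. The planned edgeR and DESeq2 tests on the recovered whole reads were left out, so how many features they would call is not known. Few reads limit the untreated JunB peaks.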
